A study of Mus musculus with 12 samples.

Results

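The 10 nuclear receptors described here are Nr4a1, Nr4a2, Nr4a3, Pparg, Ppard, Rxra, Nr3c1, Vdr, Rara and Nr1d1, transcription factors that macrophages are known to use. They were chosen by gene symbol, with earlier results of these data known. All 10 were found among the 43280 genes of the table and among the 12086 genes that were tested. RNA was sequenced from BMDM, macrophages that were grown from mouse bone marrow in medium with the growth factor M-CSF, of wild type (wt) and Treml4-/- mice, both on the C57BL6 background. In each genotype the cells received the vehicle PBS (M0) or lipopolysaccharide (LPS), a bacterial wall component that activates macrophages to the M1 state, with 100 ng/ml given over 8 h (M1-8 h) or 12 h (M1-12 h). With 2 biological replicates per condition there were 12 libraries in 6 conditions. Both LPS times were compared with the same M0 libraries, without a vehicle control for each time. A change with time in culture therefore cannot be told apart from one due to LPS. Treml4 was missing in the whole mouse from which the cells were grown, so that any difference carried over from the marrow cannot be told apart from one that arises in the macrophage.

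Nuclear receptors bind DNA and switch genes on or off, and most are controlled by small lipophilic ligands. PPARγ (Pparg), PPARδ (Ppard), the vitamin D receptor (Vdr) and the retinoic acid receptor RARα (Rara) bind DNA as heterodimers with a retinoid X receptor such as RXRα (Rxra), whereas the glucocorticoid receptor (Nr3c1) waits in the cytoplasm with chaperones until cortisol or corticosterone binds. The NR4A receptors (NUR77, NURR1 and NOR1, the products of Nr4a1, Nr4a2 and Nr4a3) work without a classical ligand and are known as immediate early genes whose mRNA is induced quickly, and REV-ERBα (Nr1d1) is a heme-binding repressor of the circadian clock.

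Positions are by the GENCODE M21 annotation of GRCm38. Rara and Nr1d1 lie close to each other on chr11, Nr4a1 and Vdr share chr15, and Nr4a2 and Rxra share chr2. Nr4a1 is at chr15:101254269-101274795, Nr4a2 at chr2:57106830-57124003 and Nr4a3 at chr4:48045153-48086447. Pparg is at chr6:115360951-115490399, Ppard at chr17:28232700-28301474 and Rxra at chr2:27676440-27762957. Vdr is at chr15:97854425-97910630, Rara at chr11:98927818-98974942 and Nr1d1 at chr11:98767932-98775333. Nr1d1 overlaps the thyroid hormone receptor gene Thra, which runs on the opposite strand, over 263 bases or 8.55% of its exon sequence. Whether counting used strand is not given in the sources used here, and without it the reads of both genes cannot be told apart over these bases.

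The promoters of the NR4A genes are shown because these 3 paralogs lie on different chromosomes and all hold a short motif several times upstream of a RefSeq start. The RefSeq starts used for Nr4a1 and Nr4a3 lie inside the genes as placed above, past the GENCODE starts at 101254269 and 48045153. The whole window of Nr4a1 lies within the gene. Each sequence is the 250 bases before the RefSeq transcription start in GRCm38.p6, written 5′ to 3′ along the gene. Capitals mark TGACG on either strand, which reads CGTCA on the other strand and is the half-site of the cAMP response element.
Nr4a1 (chr15:101266596-101266845, plus strand): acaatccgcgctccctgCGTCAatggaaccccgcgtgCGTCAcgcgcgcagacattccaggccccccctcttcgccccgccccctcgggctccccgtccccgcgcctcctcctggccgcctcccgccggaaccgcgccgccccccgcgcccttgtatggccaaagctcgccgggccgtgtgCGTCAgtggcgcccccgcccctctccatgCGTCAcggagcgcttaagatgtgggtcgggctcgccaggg
Nr4a2 (chr2:57124004-57124253, minus strand): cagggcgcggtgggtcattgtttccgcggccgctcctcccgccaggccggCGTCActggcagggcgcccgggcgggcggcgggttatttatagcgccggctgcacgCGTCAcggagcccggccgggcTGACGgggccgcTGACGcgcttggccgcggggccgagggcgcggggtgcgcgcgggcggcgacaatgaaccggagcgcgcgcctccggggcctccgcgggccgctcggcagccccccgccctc
Nr4a3 (chr4:48045055-48045304, plus strand): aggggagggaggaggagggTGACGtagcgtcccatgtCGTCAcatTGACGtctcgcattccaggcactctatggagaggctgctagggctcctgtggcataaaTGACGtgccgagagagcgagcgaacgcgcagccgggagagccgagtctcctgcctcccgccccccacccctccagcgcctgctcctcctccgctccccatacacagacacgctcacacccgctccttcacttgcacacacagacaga
Each of the 3 windows held TGACG 4 times. In Nr4a1 all 4 matches were on the minus strand relative to the gene, in Nr4a2 both strands held them, and in Nr4a3 a pair of them lay 8 bases apart, at -213 and -205 from the start. Among all 32851 RefSeq windows of this length that were searched, which leave out the chromosome of Nr3c1, 17.8% held TGACG at least once and 0.137% held it 4 times or more. The full element TGACGTCA, of which TGACG is a part, was in 1.55% of all windows and in none of these 3. The 250 bases were 74.4% G or C in Nr4a1, 80% in Nr4a2 and 63.6% in Nr4a3.

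RefSeq windows were searched for 9 of the 10 receptors, 15 windows in all, because some genes have several starts. Windows on the chromosome of Nr3c1 were left out, so its promoter is not reported here. TGACG occurred in only 1 of the 12 windows outside the NR4A genes, a start of Rara. The nuclear receptor half-site AGGTCA, found in 14% of all windows, was in windows of Pparg and Rxra. The E-box CACGTG, found in 6.02% of all windows, was in 1 window of Rara. The letters TATAAA of the TATA box, found in 12.4% of all windows, were in the window of Nr4a2 and in 1 window of Pparg. Both matches were on the minus strand relative to the gene, at -164 in Nr4a2 and -29 in Pparg. The NF-kB consensus, found in 7.25% of all windows, occurred in 3 windows of Rara. Of these, the windows at chr11:98937446-98937695 and chr11:98937468-98937717 overlap and hold the same matches. None of the 6 motifs was found on either strand in the windows of Ppard, Vdr and Nr1d1. These matches describe letters in the windows, and binding was not measured.

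Between 48008751 and 58500792 reads were counted per library, so 1 read was worth 0.0171 to 0.0208 CPM, the unit of reads scaled to library size. Treml4 had 198 to 663 reads in the wt libraries and 0 in all 6 Treml4-/- libraries. Of 8 macrophage markers, 7 were analysed and their summed level was 8398 to 25800 CPM, against 32.5 to 103 CPM for 6 markers of neutrophils and their precursors. The macrophage sum was 18870 to 25800 CPM at M0 and 8398 to 11630 CPM after LPS, with Csf1r at 6047 CPM on average at M0 and 1162 CPM at M1-8 h. Lyz2 and Cd68 fell as well, from averages of 12240 to 4949 CPM and of 1661 to 804 CPM. The markers did not move together, as Itgam, Fcgr1, Mertk and Cd14 rose, Fcgr1 from 63.0 to 1193 CPM. The 4 dendritic cell markers summed to 0.570 to 0.876 CPM at M0 and 2.53 to 7.69 CPM after LPS, almost all of it Xcr1, while Zbtb46 stayed at or under 0.337 CPM. Markers of T cells, B cells, mast cells, fibroblasts and erythroid cells summed to at most 1.25 CPM in any library, with the mast cell marker Fcer1a at 0. In bulk RNA, fewer cells of a type and less RNA per cell cannot be told apart. At M0 the neutrophil and precursor sum was 32.5 to 85.0 CPM in wt and 87.6 to 103 CPM in Treml4-/- libraries, at M1-8 h 55.4 to 59.7 and 69.2 to 89.7 CPM, and at M1-12 h 41.6 to 52.0 and 48.5 to 60.8 CPM. Its part in the genotype values below was not tested.

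After LPS the receptors were rearranged. At M1-8 h, Vdr, Nr4a2, Nr4a3 and Nr3c1 had risen, and Pparg, Rxra, Nr1d1 and Rara had fallen, while Nr4a1 and Ppard did not pass the test. At M1-12 h, Nr3c1, Nr4a2, Vdr, Nr4a3 and Ppard were above M0, and Pparg, Rxra, Nr1d1, Nr4a1 and Rara were below it. Changes are given on the log2(CPM + 1) scale as the mean over both genotypes, with the standard error (SE) of limma over all 12 libraries, and a gene was called with a Benjamini-Hochberg adjusted p under 0.05 and at least a 1.4-fold change. This scale understates the change of genes near or under 1 CPM.

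**Figure D1:**
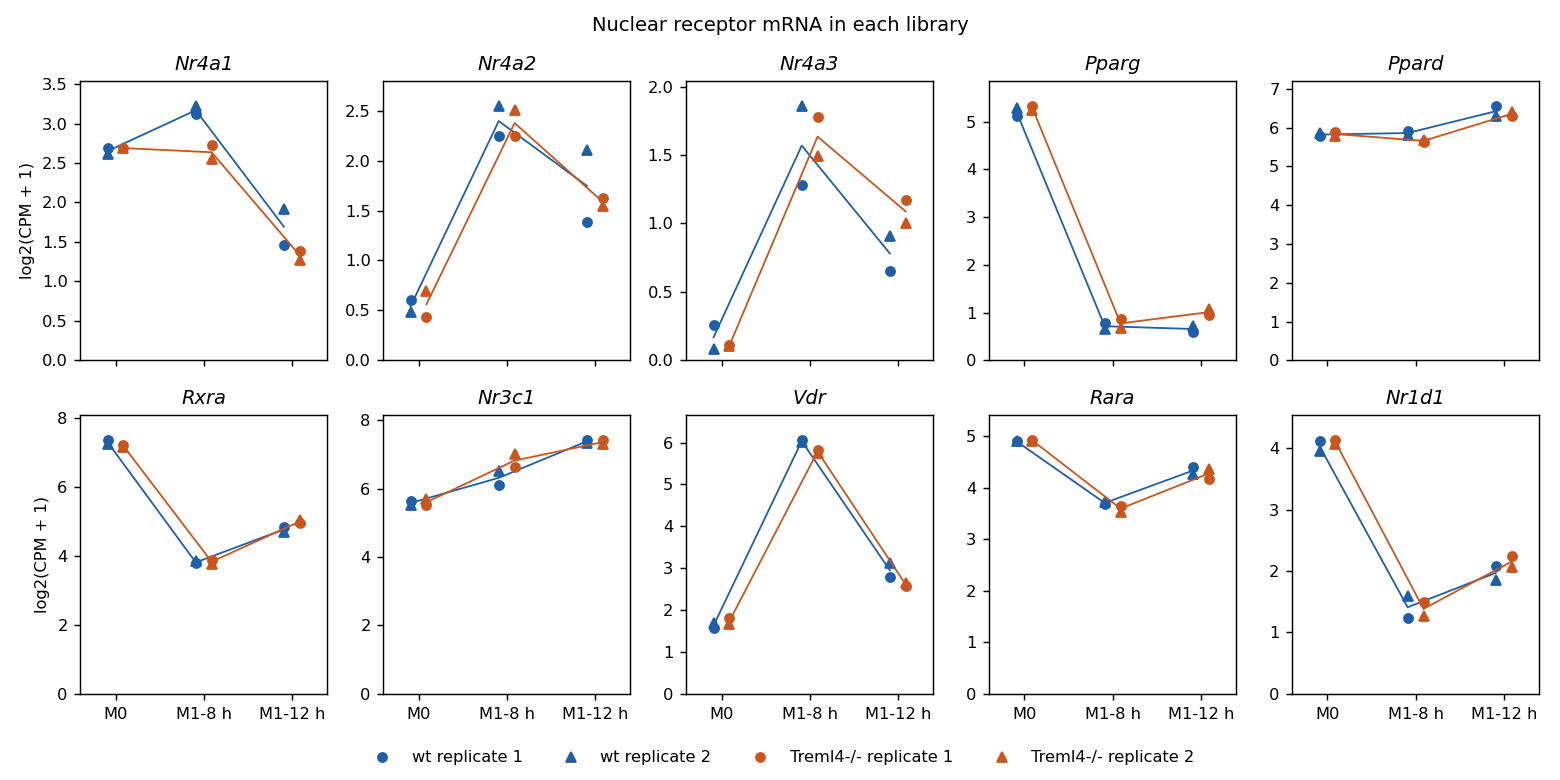
Level of each receptor in each of the 12 libraries, as log2(CPM + 1) on the vertical axis, by time point on the horizontal axis; the vertical scale differs between panels. Points are single libraries and lines join the means of 2 replicates; the Vdr panel peaks at M1-8 h, while the Pparg panel stays low at both LPS times.

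Most genes were called after LPS, so counts alone set the receptors little apart. At M1-8 h, 8 of the 10 receptors were called against 76.9% of all genes tested; 4 were higher, against 17.1% of all genes, and 4 were lower, against 59.8%. At M1-12 h all 10 were called, against 76.5% of all genes, with 5 higher against 16.3% and 5 lower against 60.3%. A gene was tested when 2 or more libraries reached 1 CPM. Nr4a2 and Nr4a3 were under 1 CPM in every M0 library, and Pparg reached 1 CPM in 2 libraries only through M0. Calls of Nr4a2 and Nr4a3 as higher, and of Pparg as lower, were thus partly set by this filter. The median log2 fold change of the 10 was 0.08 after 8 h and -0.02 after 12 h, beside -0.72 and -0.76 for all genes tested. CPM are shares of each library, and scaling by the median of ratios instead moved the median of all genes up by 0.71 after 8 h and 0.76 after 12 h. On that scale 50.8% of the called genes were higher at M1-8 h, in place of 22.3%, and 50.9% at M1-12 h, in place of 21.2%. With it 6 receptors were higher and 4 lower at M1-8 h, and 5 higher and 4 lower at M1-12 h.

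**Figure D2:**
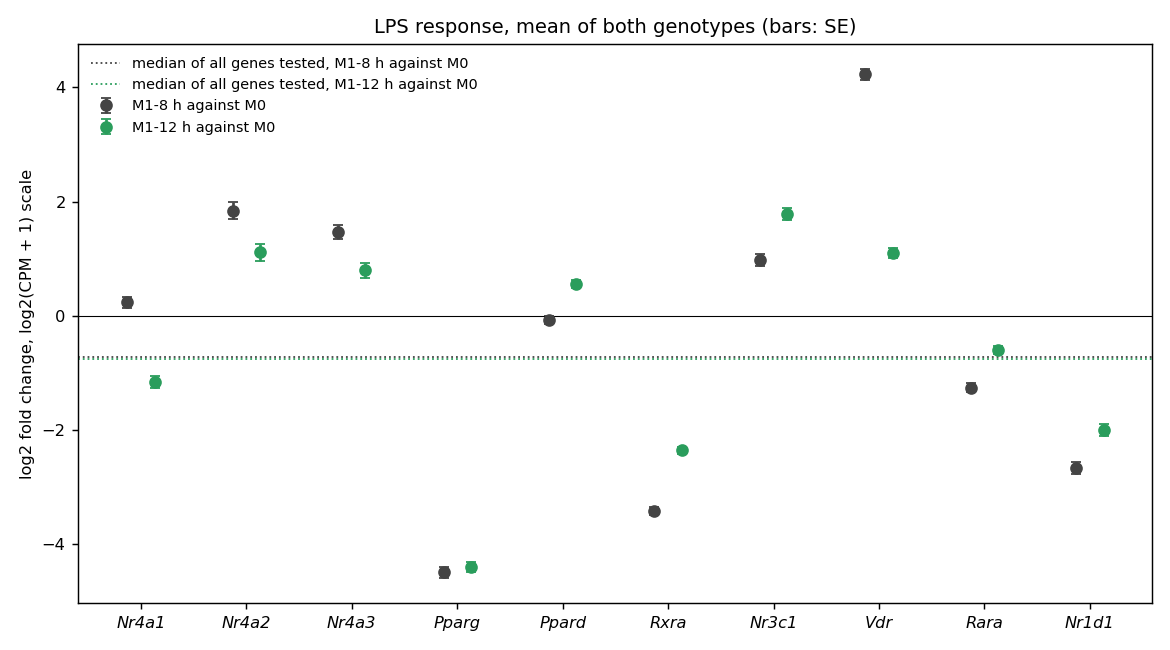
Log2 fold change of each receptor on the log2(CPM + 1) scale, M1-8 h (dark) and M1-12 h (green) against M0, as the mean of both genotypes with SE bars. Dotted lines give the median of all genes tested, -0.72 and -0.76; Vdr at 4.22 and Pparg at -4.50 are the ends of the range at M1-8 h.

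Of the orphan NR4A receptors, Nr4a2 and Nr4a3 rose from very low levels. Nr4a2 had 0.521 and 0.393 CPM in wt and 0.346 and 0.617 CPM in Treml4-/- libraries at M0. After 8 h it had 3.75 and 4.83 CPM in wt and 3.74 and 4.68 CPM in Treml4-/- libraries, and after 12 h 1.61 and 3.31 against 2.08 and 1.93 CPM. No library at M0 overlapped one at either LPS time, and every M1-8 h library was above every M1-12 h library. Its log2 fold change was 1.83 (SE 0.15, adjusted p = 2.3e-07, limma) at M1-8 h and 1.12 (SE 0.15, adjusted p = 2e-05, limma) at M1-12 h, where the mean CPM were 9.06 and 4.76 times those at M0.

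Nr4a3 was near the detection floor at M0, with 10 and 3 reads in wt and 4 and 4 reads in Treml4-/- libraries. These were 0.193, 0.0590, 0.0815 and 0.0748 CPM in the same order. At M1-8 h it had 1.43 and 2.62 CPM in wt and 2.43 and 1.81 CPM in Treml4-/- libraries, and at M1-12 h 0.575 and 0.873 against 1.25 and 1.01 CPM. All 4 libraries at M1-8 h were above all at M1-12 h, and these were above all at M0. The log2 fold changes of 1.46 (SE 0.13) and 0.80 (SE 0.13) were called (adjusted p = 4.1e-07 and 8.8e-05, limma), although levels this low leave the ratio of CPM imprecise.

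Nr4a1 was not called at M1-8 h and was below M0 at M1-12 h. It was already at 5.44 and 5.13 CPM in wt and 5.44 and 5.46 CPM in Treml4-/- libraries at M0, and at M1-8 h it had 7.69 and 8.30 CPM in wt and 5.61 and 4.85 CPM in Treml4-/- libraries. At M1-12 h it was down to 1.76 and 2.78 CPM in wt and 1.60 and 1.42 CPM in Treml4-/- libraries, below all libraries of the other times. Over both genotypes the change at M1-8 h was 0.23 (SE 0.10, adjusted p = 0.054, limma) and was not called, but with median of ratios scaling it was 0.90 (adjusted p = 5.6e-06, limma) and called. At M1-12 h it fell by 1.16 on the log2 scale from M0 (SE 0.10, adjusted p = 5.6e-07, limma), and by 0.51 with median of ratios scaling.

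The lipid-sensing receptors moved apart. Pparg, which drives fatty acid uptake and storage and marks alveolar and alternatively activated macrophages, had 33.6 and 38.2 CPM in wt and 38.8 and 36.9 CPM in Treml4-/- libraries at M0. At M1-8 h 0.706 and 0.576 CPM were left in wt and 0.821 and 0.604 CPM in Treml4-/- libraries. At M1-12 h the values were 0.499 and 0.655 CPM in wt and 0.916 and 1.11 CPM in Treml4-/- libraries. Every LPS library was far below every M0 library, and mean CPM were 1.83% of M0 after 8 h and 2.16% after 12 h. The log2 fold changes were -4.50 (SE 0.09, adjusted p = 1.8e-12, limma) and -4.41 (SE 0.09, adjusted p = 2.2e-12, limma), and between 8 and 12 h the value of 0.09 was not called (adjusted p = 0.41, limma).

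Ppard, a broadly expressed receptor for fatty acids, had 53.8 to 58.1 CPM in the 4 M0 libraries and 48.6 to 59.4 CPM in the 4 M1-8 h libraries, and these ranges overlapped. At M1-12 h it had 92.5 and 77.8 CPM in wt and 78.3 and 83.6 CPM in Treml4-/- libraries, all above the earlier times. The log2 fold change was -0.07 (SE 0.07, adjusted p = 0.37, limma) at M1-8 h, but 0.72 (adjusted p = 4.7e-06, limma) with median of ratios scaling. At M1-12 h it rose by 0.56 (SE 0.07, adjusted p = 1.1e-05, limma), and was called higher with that scaling as well.

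Rxra, the shared partner of PPARγ, PPARδ, VDR and RARα, fell after LPS and partly returned. It had 164 and 150 CPM in wt and 149 and 141 CPM in Treml4-/- libraries at M0, and 12.7 to 13.8 CPM in the 4 libraries at M1-8 h. At M1-12 h it had 27.7 and 25.1 CPM in wt and 30.4 and 31.8 CPM in Treml4-/- libraries. The 3 times did not overlap, with means of 8.72% and 19.0% of M0. The log2 fold changes were -3.42 (SE 0.07, adjusted p = 1.5e-12, limma) and -2.36 (SE 0.07, adjusted p = 2.9e-11, limma), and Rxra rose by 1.06 (SE 0.07, adjusted p = 2.5e-07, limma) from 8 to 12 h.

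Among the vitamin receptors, Vdr had the largest rise of the 10 receptors at M1-8 h and fell again by M1-12 h. It had 1.99 and 2.22 CPM in wt and 2.51 and 2.17 CPM in Treml4-/- libraries at M0, and 65.7 and 63.3 CPM in wt and 55.4 and 53.0 CPM in Treml4-/- libraries at M1-8 h. At M1-12 h 5.89 and 7.66 CPM remained in wt and 4.96 and 5.26 CPM in Treml4-/- libraries. Mean CPM were 26.7 times those of M0 at M1-8 h and 2.67 times at M1-12 h, and no libraries of different times overlapped. The log2 fold change was 4.22 (SE 0.09, adjusted p = 3.3e-12, limma) at M1-8 h and 1.09 (SE 0.09, adjusted p = 2.4e-07, limma) at M1-12 h, with a fall of 3.13 between both times (SE 0.09, adjusted p = 9.1e-09, limma).

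Rara, the receptor for retinoic acid, had close values at M0, with 28.9 and 29.0 CPM in wt and 29.5 and 29.1 CPM in Treml4-/- libraries. At M1-8 h it had 12.0 and 12.2 CPM in wt and 11.6 and 10.6 CPM in Treml4-/- libraries, and at M1-12 h 20.1 and 18.3 against 17.1 and 19.8 CPM. All libraries at M1-8 h were below all at M1-12 h, and these were below all at M0. It fell by 1.26 on the log2 scale at M1-8 h (SE 0.07, adjusted p = 1.1e-08, limma), but by 0.50 with median of ratios scaling, close to the 1.4-fold limit of 0.49. At M1-12 h the change was -0.60 (SE 0.07, adjusted p = 7.7e-06, limma), a direction that median of ratios scaling turned to 0.21 (adjusted p = 0.03, limma), under the 1.4-fold limit.

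The steroid receptor of the group, Nr3c1, which carries the anti-inflammatory action of glucocorticoids, kept rising over the time course. It had 49.1 and 44.7 CPM in wt and 44.7 and 50.7 CPM in Treml4-/- libraries at M0, and 68.0 and 90.9 CPM in wt and 97.7 and 129 CPM in Treml4-/- libraries at M1-8 h. At M1-12 h it had 170 and 162 CPM in wt and 170 and 157 CPM in Treml4-/- libraries. The times did not overlap, and the spread was widest at M1-8 h, where replicates differed within both genotypes. The log2 fold changes were 0.98 (SE 0.11, adjusted p = 3.5e-06, limma) at M1-8 h and 1.78 (SE 0.11, adjusted p = 1.5e-08, limma) at M1-12 h, and 0.80 (SE 0.11, adjusted p = 7e-05, limma) between them.

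Nr1d1, the clock repressor, had 16.3 and 14.5 CPM in wt and 16.5 and 15.8 CPM in Treml4-/- libraries at M0. At M1-8 h it had 1.35 and 2.01 CPM in wt and 1.83 and 1.41 CPM in Treml4-/- libraries, and at M1-12 h 3.24 and 2.62 against 3.73 and 3.19 CPM. No 2 times overlapped, and the means were 10.5% and 20.3% of M0. The log2 fold changes were -2.67 (SE 0.11, adjusted p = 5.4e-10, limma) and -2.00 (SE 0.11, adjusted p = 5.6e-09, limma). Thra, whose exons overlap those of Nr1d1 on the other strand, also fell, from 22.8 to 25.7 CPM at M0 to 5.95 to 7.45 CPM after 8 h of LPS. Its change was -1.76 on the log2 scale (SE 0.08, adjusted p = 1.6e-09, limma), and its part in the Nr1d1 reads was not tested.

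Between 8 and 12 h of LPS, Vdr and the NR4A receptors fell while Rxra, Nr3c1, Nr1d1, Rara and Ppard rose. Of the 10, 9 were called between these times against 32.1% of all genes tested. Higher at M1-12 h were 5 receptors, against 13.5% of all genes, namely Rxra, Nr3c1, Nr1d1, Rara and Ppard. Lower at M1-12 h were 4, against 18.7% of all genes, namely Vdr, Nr4a1, Nr4a2 and Nr4a3. The log2 fold changes were -1.39 for Nr4a1, -0.72 for Nr4a2 and -0.67 for Nr4a3, and 0.67 for Nr1d1, 0.65 for Rara and 0.63 for Ppard. The same 5 and 4 were called with median of ratios scaling, which moved the median of all genes by 0.04 here. LPS comparisons share their M0 or M1-8 h libraries, so that the values at both times are not independent.

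Per kb of exon, the order of the receptors was different at each time. At M0 it ran from Rxra at 27.6 CPM per kb over Pparg at 12.5, Ppard at 7.43, Rara at 6.67, Nr3c1 at 6.15 and Nr1d1 at 5.13 to Nr4a1 at 1.53, Vdr at 0.393, Nr4a2 at 0.116 and Nr4a3 at 0.0170. No neighbours in this order overlapped over the 4 libraries of M0. At M1-8 h Nr3c1 at 12.5 and Vdr at 10.5 CPM per kb led with overlapping libraries, followed by Ppard at 7.10. Then came Rara at 2.66, Rxra at 2.41 and Nr4a1 at 1.88 CPM per kb, where Rara overlapped Rxra and Rxra overlapped Nr4a1. At the low end stood Nr4a2 at 1.05, Nr1d1 at 0.536, Nr4a3 at 0.346 and Pparg at 0.229 CPM per kb, of which only Nr4a3 and Pparg overlapped. At M1-12 h Nr3c1 was first at 21.4 CPM per kb and Ppard second at 11.1, apart from each other and from the rest. Rxra at 5.26 and Rara at 4.32 overlapped, as did Vdr at 1.05 and Nr1d1 at 1.04, Nr4a2 at 0.550 and Nr4a1 at 0.539, and Pparg at 0.269 and Nr4a3 at 0.155 CPM per kb.

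**Figure D3:**
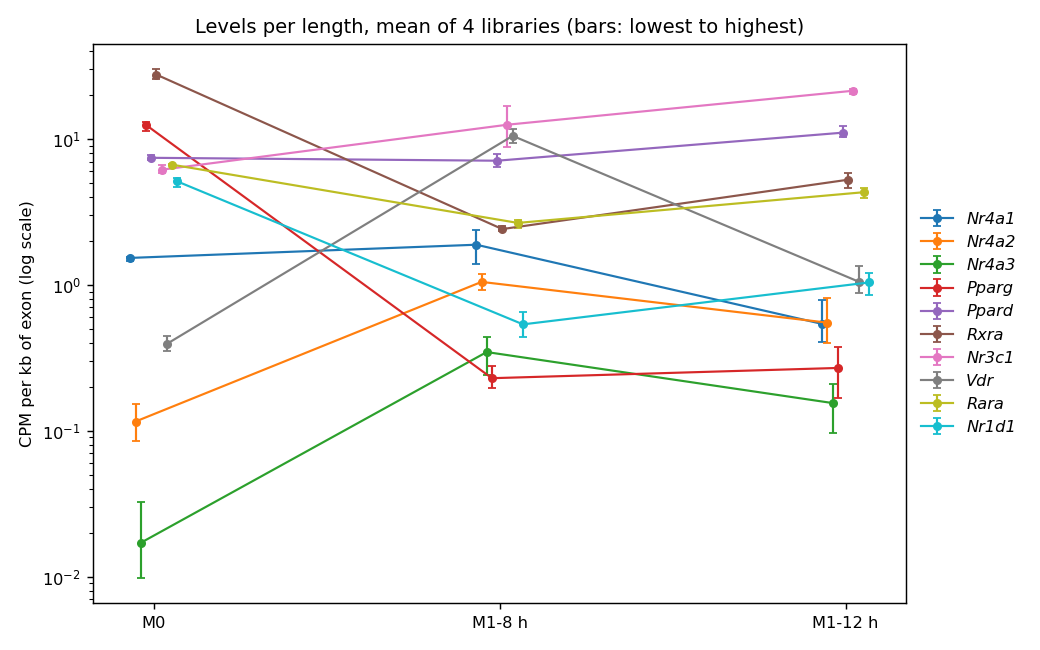
CPM per kb of exon on a log scale for the 10 receptors by time point; points are means of 4 libraries and bars run from the lowest to the highest library. Rxra leads at M0 with 27.6 CPM per kb and Nr3c1 at M1-12 h with 21.4 CPM per kb.

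The 10 receptors were also set beside the rest of the family. Of 39 other nuclear receptor genes, 13 were tested and 26 were too low, with at most 0.311 CPM in any library, 14 of them without a read. Over the 23 tested receptors, the 10 made up 35.0% of the summed CPM per kb at M0 (33.0% to 36.3% over 4 libraries), 38.3% at M1-8 h (35.9% to 40.2%) and 36.4% at M1-12 h (33.9% to 37.8%). Nr1h2, the oxysterol receptor LXRβ, stood first among the 23 at all times, with 37.6, 30.3 and 36.7 CPM per kb. Rxra went from rank 2 at M0 to rank 10 at M1-8 h and rank 7 at M1-12 h, and Nr3c1 was at rank 3 at M1-8 h and rank 2 at M1-12 h.

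Among the 13 others, 1 was higher and 8 lower at M1-8 h, with a median log2 fold change of -1.60 beside 0.08 for the 10. Because the 10 were chosen with earlier results of these data known, a difference between both sets may come from that choice. At M1-12 h 1 was higher and 9 lower, with a median of -0.70 beside -0.02 for the 10 and -0.76 for all genes. Scaled by the median of ratios, 2 were higher and 7 lower at M1-8 h, and 4 higher and 5 lower at M1-12 h. Their medians were then -0.83 and -0.17, beside 0.81 and 0.60 for the 10. Rarg, a second retinoic acid receptor, fell from 43.3 ± 5.36 CPM (SD, n = 4) at M0 to 3.89 ± 1.13 CPM (SD, n = 4) after 8 h and had 16.3 ± 0.844 CPM (SD, n = 4) after 12 h. Rxrb, a second retinoid X receptor, fell from 99.3 ± 5.86 to 14.5 ± 1.09 CPM (SD, n = 4) and was still at 16.7 ± 0.957 CPM (SD, n = 4) at M1-12 h. The estrogen receptor gene Esr1 was the one called higher, from 1.15 ± 0.198 to 6.13 ± 0.695 CPM (SD, n = 4) after 8 h. Esrra also had a higher mean after 8 h, 60.5 against 45.3 CPM at M0. Its log2 fold change of 0.41 was under the 1.4-fold limit.

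**Figure D4:**
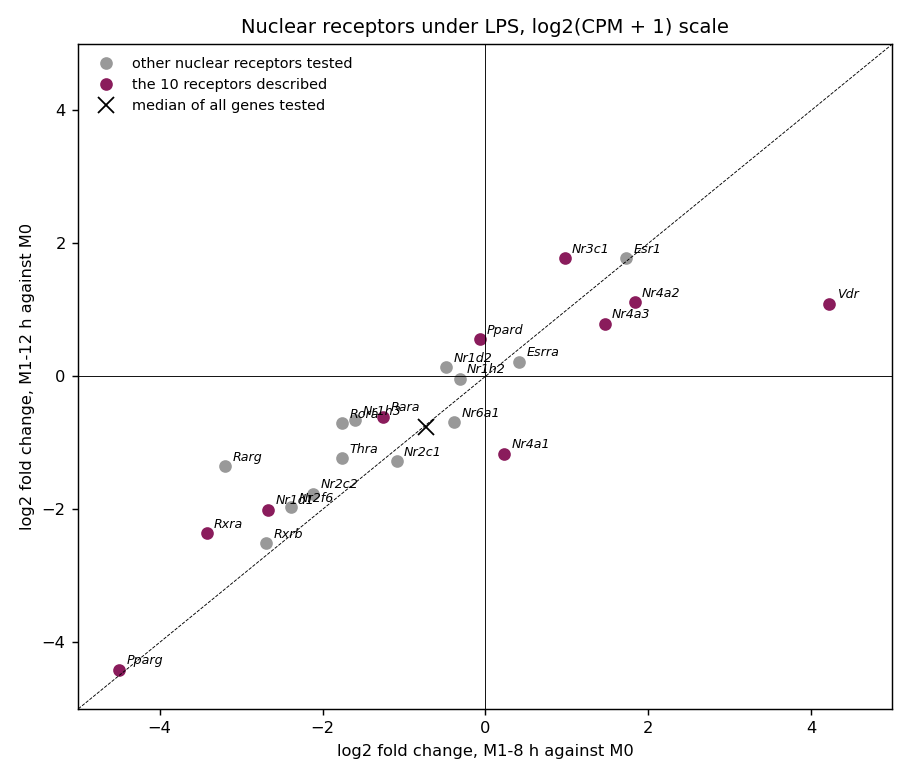
Log2 fold change at M1-12 h (vertical axis) against that at M1-8 h (horizontal axis), both against M0 on the log2(CPM + 1) scale, for the 10 receptors (purple) and 13 other tested nuclear receptors (grey), with the median of all genes as a cross and the line of equal values dashed. Both axes share the M0 libraries; Vdr lies farthest below the line, with 4.22 and 1.09.

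Partners and target genes of the receptors, listed by their known roles, were counted in the same way, to be read against the 59.8% of all genes that were lower and 17.1% that were higher after 8 h, and the 60.3% and 16.3% after 12 h. Of 14 tested coregulators 10 were lower and 1 higher at M1-8 h, but under scaling by the median of ratios 4 were lower and 4 higher. The median log2 fold change of the list was -0.78 at M1-8 h, beside -0.72 for all genes. The coactivator gene Ncoa2 fell from 54.7 ± 5.14 to 16.5 ± 2.78 CPM (SD, n = 4), with a change of -1.68 on the log2 scale (SE 0.11, adjusted p = 4.1e-08, limma). Another coactivator gene, Ppargc1b, rose from 2.94 ± 0.645 to 5.83 ± 0.506 CPM (SD, n = 4).

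Of 9 tested PPAR target genes 7 were lower and none higher at both LPS times, beside 3 lower and 2 higher at M1-8 h, and 5 lower and 2 higher at M1-12 h, when scaled by the median of ratios. Their median log2 fold change was -0.79 at M1-8 h and -1.55 at M1-12 h, beside -0.72 and -0.76 for all genes, of which 59.8% and 60.3% were lower. Angptl4, an inhibitor of lipoprotein lipase, went from 25.6 ± 3.31 CPM (SD, n = 4) at M0 to averages of 0.0313 CPM after 8 h and 0.0585 CPM after 12 h, with log2 fold changes of -4.68 and -4.65 (adjusted p = 6.8e-13 and 8.1e-13, limma). Cpt1a, the entry enzyme of mitochondrial fatty acid oxidation, fell from 347 ± 15.4 to 97.0 ± 8.10 CPM (SD, n = 4). Acaa2, of the same pathway, fell from 52.8 ± 3.14 to 13.3 ± 2.11 CPM (SD, n = 4).

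Target genes of the glucocorticoid receptor moved in both directions. Of 9 tested, 2 were higher and 6 lower at M1-8 h, and 2 higher and 5 lower at M1-12 h, beside 3 and 4, and 4 and 5, under the other scaling. The median of the list was -0.86 and -1.38 at the 2 times. Tsc22d3, which encodes GILZ, fell from 97.1 ± 5.11 to 5.32 ± 1.62 CPM (SD, n = 4), and was at 30.7 ± 11.9 CPM (SD, n = 4) at M1-12 h. The cochaperone gene Fkbp5 fell from 15.3 ± 2.15 to 3.13 ± 0.253 CPM and was at 1.30 ± 0.166 CPM (SD, n = 4) at M1-12 h, and the kinase gene Sgk1 fell from 111 ± 6.80 to 12.8 ± 1.06 CPM (SD, n = 4). Dusp1, a phosphatase of MAP kinases that other signals also induce, rose from 61.4 ± 9.13 to 397 ± 49.0 CPM (SD, n = 4), and so did Ddit4, from 1.08 ± 0.225 to 5.66 ± 1.12 CPM (SD, n = 4). Of 6 tested genes for glucocorticoid activation and receptor chaperones, 1 was higher and 1 lower at M1-8 h, with 2 higher and 2 lower at M1-12 h, beside 4 higher and 1 lower at each time with median of ratios scaling. The chaperone gene Hspa8 rose by 0.51 and 1.15, and the cochaperone gene Fkbp4 fell by 1.67 at M1-8 h on the log2 scale (adjusted p = 3.5e-08, limma).

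Only 3 of 14 genes for retinoid and vitamin D metabolism or action reached the level for testing. Dhrs3, a retinal reductase, fell from 189 ± 7.06 to 8.41 ± 0.780 CPM (SD, n = 4), and Rdh10, a retinol dehydrogenase, fell from 8.04 ± 1.38 to 1.57 ± 0.205 CPM (SD, n = 4). Tgm2, a transglutaminase induced by retinoic acid, rose from 115 ± 12.5 to 684 ± 101 CPM after 8 h and 1520 ± 220 CPM (SD, n = 4) after 12 h. These 3 kept their calls with median of ratios scaling.

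Of 13 tested clock genes other than Nr1d1, 9 were lower and 2 higher at M1-8 h, and 8 lower and 2 higher at M1-12 h. After scaling by the median of ratios 6 were lower and 3 higher at M1-8 h, and 4 lower and 5 higher at M1-12 h. Their median was -1.09 and -0.60, beside the same -0.72 and -0.76 for all genes. The PAR bZip factor genes Dbp and Tef fell from 22.4 ± 1.75 to 0.591 ± 0.152 CPM and from 120 ± 9.31 to 7.77 ± 0.761 CPM (SD, n = 4). The clock repressor gene Bhlhe41 fell from 74.1 ± 4.68 to 2.35 ± 0.449 CPM and was at 26.8 ± 7.64 CPM (SD, n = 4) at M1-12 h. Nfil3, a repressor that is controlled by REV-ERBα in the clock, rose from 18.2 ± 1.92 to 134 ± 21.1 CPM (SD, n = 4).

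Between genotypes, none of the 10 receptors was called at any time by limma, nor with voom on the recovered reads. At M0 the differences of wt minus Treml4-/- ran from -0.10 for Vdr to 0.11 for Rxra on the log2 scale, and 0 of 10 were called against 0.0993% of all genes. An unadjusted p under 0.05 was reached by 0 receptors, against 3.35% of all genes. At M1-8 h 0 were called against 0.0910% of all genes, and 2 had an unadjusted p under 0.05, against 21.0% of all genes. At M1-12 h 0 were called against 0.132%, and 4 had such a p, against 7.55%. Over all times 0 were called against 0.414%, and 2 had such a p, against 20.1%.

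At M1-8 h the receptors with an unadjusted p under 0.05 were Nr4a1 and Nr3c1, with values of opposite sign. The libraries of wt and Treml4-/- did not overlap in 5 of 10 receptors, namely these 2, Ppard, Vdr and Rara, against 51.9% of all genes tested. The mean of Nr4a1 was 7.99 ± 0.430 CPM for wt against 5.23 ± 0.536 CPM for Treml4-/- (each SD, n = 2), with a log2 difference of 0.53 (SE 0.15, adjusted p = 0.15, limma). The mean of Nr3c1 was 79.4 ± 16.2 CPM for wt against 113 ± 21.8 CPM for Treml4-/- (each SD, n = 2), with a log2 difference of -0.51 (SE 0.15, adjusted p = 0.16, limma). Neither was called, but without Treml4-/- replicate 1 of M1-8 h, Nr3c1 was called at -0.70 (adjusted p = 0.0377, limma), in a fit that called 598 genes in place of 11 and assumes that the lone library varies like the others. At M1-12 h the values of Nr3c1 overlapped, with a difference of 0.02 (adjusted p = 0.99, limma).

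At M1-12 h the 4 receptors with an unadjusted p under 0.05 were Pparg at -0.35, Vdr at 0.34, Nr4a1 at 0.36 and Rxra at -0.23 (adjusted p = 0.5, 0.55, 0.61 and 0.6, limma). The libraries of the 2 genotypes did not overlap in these 4 and in Nr4a3, that is in 5 of 10 receptors, against 43.1% of all genes tested. Pparg was at 0.577 ± 0.111 CPM for wt against 1.01 ± 0.138 CPM for Treml4-/- (each SD, n = 2), so that the difference lies at 26 to 64 reads per library. Vdr was at 6.77 ± 1.25 against 5.11 ± 0.214 CPM, and after 8 h at 64.5 ± 1.68 against 54.2 ± 1.68 CPM (each SD, n = 2), with an adjusted p of 0.29 by limma. Over all times, Nr4a1 had a difference of 0.29 (SE 0.09, adjusted p = 0.15, limma) and Pparg of -0.16 (SE 0.07, adjusted p = 0.24, limma).

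**Figure D5:**
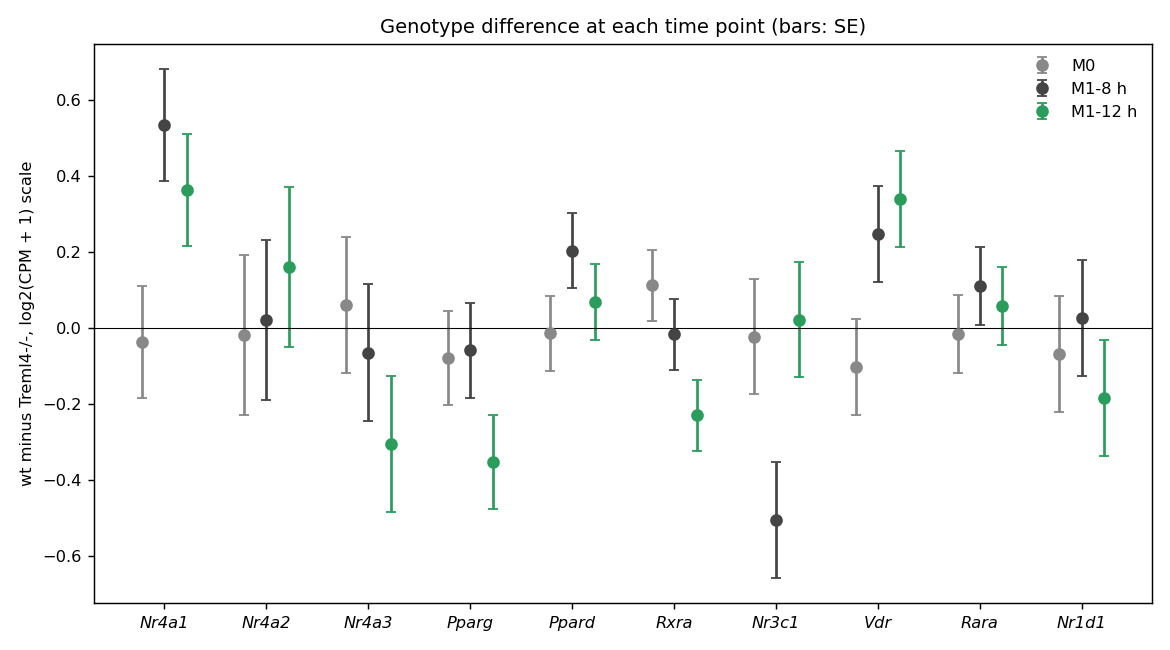
Difference of wt minus Treml4-/- for each receptor on the log2(CPM + 1) scale by time point, with SE bars from limma over 12 libraries. None was called; the values farthest from 0 are Nr4a1 at 0.53 and Nr3c1 at -0.51, both at M1-8 h.

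The response to LPS also gave no called difference between genotypes. For the interaction at 8 h, 0 of 10 were called against 0.00827% of all genes, and 2 had an unadjusted p under 0.05, against 6.67% of all genes. For the interaction at 12 h, 0 were called against 0.00827%, and 2 had such a p, against 3.82%. Nr4a1 rose by 0.52 in wt cells at M1-8 h (SE 0.15, adjusted p = 0.0064, limma) and had a value of -0.05 in Treml4-/- cells (SE 0.15, adjusted p = 0.74, limma), but the test of this difference itself, 0.57 (SE 0.21), had an adjusted p of 0.73 by limma. For Nr3c1 the LPS response at M1-8 h was 0.74 in wt and 1.22 in Treml4-/- cells, both called, with an interaction of -0.48 (SE 0.21, adjusted p = 0.73, limma). At 12 h the 2 were Vdr, with responses of 1.32 and 0.87 and an interaction of 0.44 (SE 0.18), and Rxra, with -2.53 and -2.19 and an interaction of -0.34 (SE 0.13), both at an adjusted p of 1 by limma. The other receptors called after LPS were called in the same direction within each genotype.

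Over the time course, the genes most like each receptor were those with the smallest root-mean-square difference of log2(CPM + 1), taken relative to M0, over the 12 libraries. For Vdr these were Dusp2, a phosphatase of MAP kinases, and Fst, the activin antagonist follistatin, at 0.24 and 0.26. Dusp2 went from 1.92 over 48.5 to 4.70 CPM and Fst from 0.00468 over 18.0 to 1.73 CPM, as means of 4 libraries at M0, M1-8 h and M1-12 h. For Pparg they were Tacc2 and Mxd4 at 0.13 and 0.16, and Mxd4, a MAX-binding repressor, went from 125 to 3.97 CPM. For Rxra they were Slc26a11 and Tfeb at 0.13 and 0.14, and Tfeb, a regulator of lysosomal genes, went from 87.7 over 6.50 to 15.2 CPM.

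For Nr4a1 the nearest genes were Stat5a and Srsf7, both at 0.15, and Stat5a, a signal transducer of cytokine receptors, went from 42.7 over 50.8 to 16.9 CPM. Those of Nr4a2 were Tpm4 at 0.15 and Rab10 at 0.17, and those of Nr4a3 were Ankrd17 at 0.16 and Mb21d2 at 0.17. Because log2(CPM + 1) flattens changes near or under 1 CPM, such matches need not share a fold change. Tpm4 went from 235 over 853 to 503 CPM, whereas Nr4a2 went from 0.469 over 4.25 to 2.23 CPM. Ankrd17 went from 116.5 over 321.5 to 206 CPM, and Mb21d2 from 0.147 over 2.44 to 0.858 CPM, whereas Nr4a3 went from 0.102 over 2.07 to 0.926 CPM. No receptor was among the nearest genes of another. Ppard was nearest to Prmt2 and Zdhhc12, Nr3c1 to 1700123I01Rik and Rsbn1, Rara to Lmf1 and Wwp2, and Nr1d1 to Pcyox1 and Kank2, at 0.07 to 0.14. The same limit holds for 1700123I01Rik, which went from 0.0434 over 1.23 to 2.87 CPM. Rara had the closest match, Lmf1 at 0.07, and the nearest match of Vdr at 0.24 was the most distant.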

How the data were processed

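RNA-seq libraries of wt and Treml4-/- BMDM at M0, M1-8 h and M1-12 h were analysed, with 2 biological replicates per condition taken from the sample titles. Libraries were stranded and poly(A)-selected. The authors aligned reads with STAR to mm10, as the submitters' processing notes name them, counted them with Subread and deposited log2 CPM with a prior count of 0.25 reads; the annotation and the strand setting of the counting are not given in the sources used here. Their own gene lists are not used here. Whole reads were recovered for 100% of values (tolerance 0.01), from which CPM were computed. The design had been written for CPM, and the deposited log2 values were turned into CPM for it. The deposited log2 CPM was also tested directly.

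A gene entered the test if 2 or more libraries reached 1 CPM, which 12086 of 43280 did. The fit used limma 3.58.1 (R 4.3.3) on log2(CPM + 1), all 12 libraries, a mean for each condition, a trended prior variance and Benjamini-Hochberg adjustment. Calls needed a 1.4-fold change and an adjusted p under 0.05. The test was checked on simulated data. Totals of 48008751 to 58500792 reads cover counting error only. Replicates differed by more than sampling noise (chi-square per degree of freedom of at least 12.1).

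The members and lists were chosen with earlier results of these data known. Named genes were the 10 receptors, Treml4, at most 3 called genes per direction of each list by log2 fold change at M1-8 h, and the 2 nearest genes per receptor. Thra, the macrophage markers, Xcr1, Zbtb46, Fcer1a and Nr1h2 were named after their values were seen. Some listed genes are not reported here. GENCODE M21 (GRCm38) gave positions and exon lengths, which need not be the annotation the authors used, and RefSeq the promoters. Alternatives were a pseudocount of 0.1, no filter, a filter at 5 CPM, replicate blocks, median of ratios scaling, no trend, the libraries of the comparison alone, deposited log2 CPM, voom on recovered reads, no minimum fold and leaving out each library. Python 3.11.15, numpy 2.4.6, pandas 2.3.3 and matplotlib 3.10.9 were used.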

Additional observations from a re-analysis of the deposited data

How the results depend on the processing

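The receptors were recomputed under 23 alternatives, of which the setting with no minimum fold gave counts only. Of 1907 values of single receptors, 1851 kept their direction and side of the threshold. A further 54 changed sign, and 2 crossed the threshold upwards with their sign kept. Among the values that changed sign, Ppard at M1-8 h became called and Rara at M1-12 h lost its call, both with median of ratios scaling. Of 202 recomputed counts of called receptors 201 were within 1.5 times the reported one. The other was wt against Treml4-/- at M1-8 h, with 0 to 1 receptors called when single libraries were left out; the 1 was Nr3c1, without Treml4-/- M1-8h replicate 1. The only call lost was that of Rara at M1-12 h under the scaling by median of ratios, where 9 receptors in place of 10 were called; the filter at 5 CPM left Nr4a2 and Nr4a3 untested. With median of ratios scaling, Nr4a1 at M1-8 h crossed the threshold at 0.90, and Ppard at M1-8 h (0.72) and Rara at M1-12 h (0.21) changed sign, as did the uncalled genotype values at M0 of Ppard (0.023), Nr3c1 (0.015) and Rara (0.022), at M1-8 h of Nr4a3 (0.023) and Rxra (0.10), and over all times of Rxra (0.036). The uncalled interaction of Pparg at 8 h became -0.044 with a pseudocount of 0.1, -0.060 with deposited log2 CPM and -0.067 with voom. Leaving out 1 library turned the sign of 24 uncalled genotype values. For wt minus Treml4-/- at M0 the ranges were Nr4a2 -0.15 to 0.11, Nr4a3 -0.026 to 0.15, Pparg -0.17 to 0.011, Ppard -0.065 to 0.036, Nr3c1 -0.11 to 0.066 and Nr1d1 -0.15 to 0.014. For the same at M1-8 h the ranges were Nr4a2 -0.13 to 0.17, Nr4a3 -0.35 to 0.22, Pparg -0.15 to 0.032, Rxra -0.073 to 0.038 and Nr1d1 -0.15 to 0.20. For that at M1-12 h the ranges were Nr4a2 -0.20 to 0.52, Ppard -0.056 to 0.19, Nr3c1 -0.038 to 0.081 and Rara -0.040 to 0.16. For that over all times the ranges were Nr4a2 -0.067 to 0.17. For the interaction at 8 h the ranges were Nr4a2 -0.11 to 0.19, Nr4a3 -0.41 to 0.16, Pparg -0.072 to 0.11 and Nr1d1 -0.082 to 0.27. For the interaction at 12 h the ranges were Nr4a2 -0.18 to 0.54, Ppard -0.041 to 0.21, Nr3c1 -0.044 to 0.13 and Rara -0.025 to 0.17. The causes were not tested.

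Replicate numbers were not treated as pairs. Deviations of same-numbered libraries correlated at -0.26 (M0), 0.30 (M1-8 h) and 0.06 (M1-12 h) between genotypes, and at -0.27 to 0.46 between times. With the replicate number as a block, 8, 10 and 9 receptors were called in the LPS comparisons and 0 in every genotype comparison, as without it, and genes called between genotypes at M1-8 h went from 11 to 12.

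Counts of all genes moved more. Over the alternatives 6 to 219 were called between genotypes at M0, 5 to 598 at M1-8 h, 6 to 79 at M1-12 h and 17 to 183 over all times, 0 to 3 and 0 to 33 for the interactions at 8 and 12 h, 7498 to 10811 and 7705 to 10813 for LPS at 8 and 12 h, and 3483 to 7291 between both. With median of ratios scaling, higher calls over genotype were 53.8% in place of 36.4% at M1-8 h, 60% in place of 37.5% at M1-12 h and 52% in place of 20% over all times. With 2 libraries per condition, small genotype differences of Nr4a2, Nr4a3 and Pparg after LPS, at 26 to 260 reads per library, were not resolved.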
